A study of Mus musculus with 18 samples.

Results

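Microglia, the resident macrophages of brain tissue, and the macrophages of the brain's borders (meninges, vessel walls and choroid plexus) were read through 32 marker genes in brains of mice at postnatal day 7. The members were all probe sets annotated to exactly 1 of these genes, and 31 of the 32 have one, among 18193 genes on the arrays; Spp1 was not analysed here. In cortex, 9 of 22 tested member genes rose in the knockout (2.75% of all genes tested did), among them the 3 chains of complement C1q, the receptor Csf1r and the border macrophage gene Mrc1, and Lpl fell (0.66% of all did). With sex as a term in the fit, C1qa and Mrc1 alone kept their calls, and with blank cells set to a low signal C1qa, Csf1r and Mrc1 among the genes that rose, and Lpl. The parenchymal microglia genes P2ry12 and Cx3cr1 did not pass the test. The log2 change was near 0 for P2ry12. For Cx3cr1, blank on a wild-type array, it was 0.50 (adjusted p = 0.285 in limma), and 0.38 to 1.18 over 16 alternatives, without passing.

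Microglia arise from yolk sac progenitors and not from the neural lineage, enter the brain before birth and depend on signalling through the receptor CSF1R. In the developing brain they clear dying cells and synapses, in part through complement C1q, which they make. Border macrophages share much of their gene expression with microglia, but carry the mannose receptor Mrc1 and little of the purinergic receptor P2ry12, so the 2 kinds of gene can be set against each other in RNA from whole tissue.

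The study compared wild-type mice with conditional knockouts of the DNA repair gene Brca1. In the knockouts, 1 Brca1 allele is floxed around exons 5 to 13, the other is a null allele in which a neo cassette was inserted in reverse at the 5' end of exon 11, and Cre is driven by nestin, a gene of neural progenitors. Which of these alleles the wild-type animals carry, if any, is not given. Cortex RNA of 3 wild-type and 3 knockout replicates was read on 2 Affymetrix arrays, the A chip and the B chip, and 3 and 3 samples titled rest, from brain of the same age, on a combined array; the labels do not define rest. The labels do not say whether replicates are separate animals, so p-values measure the spread between these samples only.

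The tables hold 22626 (A chip), 22511 (B chip) and 45037 (rest) probe sets, and a signal is listed for 54% to 58%, 33.6% to 42.6% and 49.2% to 51.6% of them on an array, with the other cells blank. The number of arrays, 3 a group, limits the precision. Of the 4 Brca1 probe sets on the A chip, 1 was listed: it read 38.0, 36.9 and 48.9 in wild type and 51.4, 44.0 and 61.4 in knockout (log2 change 0.25, adjusted p = 0.496). Since the exons it reads are not known here, it does not check the labels, and wild type and knockout mean the labelled groups throughout. The Y-linked Eif2s3y was listed at 155 and 192 on the A chip arrays of knockout replicates 1 and 2. It was blank on the other 4, where Xist read 2186 to 2856. Rest showed the same, with Eif2s3y at 256 and 236 on knockout replicates 1 and 2. On the other 4 rest arrays it was blank and Xist read 3504 to 4673. Sex and genotype thus overlap in part in cortex and in rest. A fit with sex as a term, which compares knockout replicate 3 with wild type, is given where it changes a call. The neuronal gene Neurod6 was listed on all 6 A chip arrays of cortex (229 to 394). In rest it read 208 in wild-type replicate 2 and 203 in knockout replicate 1 against 34.5 to 42.6 on 3 arrays and a blank, so these 2 arrays stand apart (Neurod6 was chosen after its values were seen).

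Of the members, 30 genes have 41 probe sets on the A chip. Testing required a signal on 2 or more arrays of each genotype, and a gene was read on its brightest probe set, by preference one listed on all 6 arrays. This left 22 member genes tested in cortex. Of these, 9 were higher in the knockout at an adjusted p under 0.05 in limma, where 2.75% of all 7275 genes tested were, and 1 was lower, where 0.66% were. All knockout arrays lay above all wild-type arrays for 13 of the 22 (12.2% of all genes tested) and below them for 1 (11.7%). The median change, on the log2(signal + 16) scale used for all changes here, was 0.56 over the member genes and -0.014 over all genes. By probe set, 11 were higher (2.3% of all) and 2 lower (0.713%). In RNA from bulk tissue, more cells of a type and more RNA per cell cannot be told apart. The count of members higher was 3 without wild-type replicate 2, 5 without knockout replicate 1, 4 without knockout replicate 2 and 2 (C1qa and Mrc1) with the sex term.

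**Figure D1:**
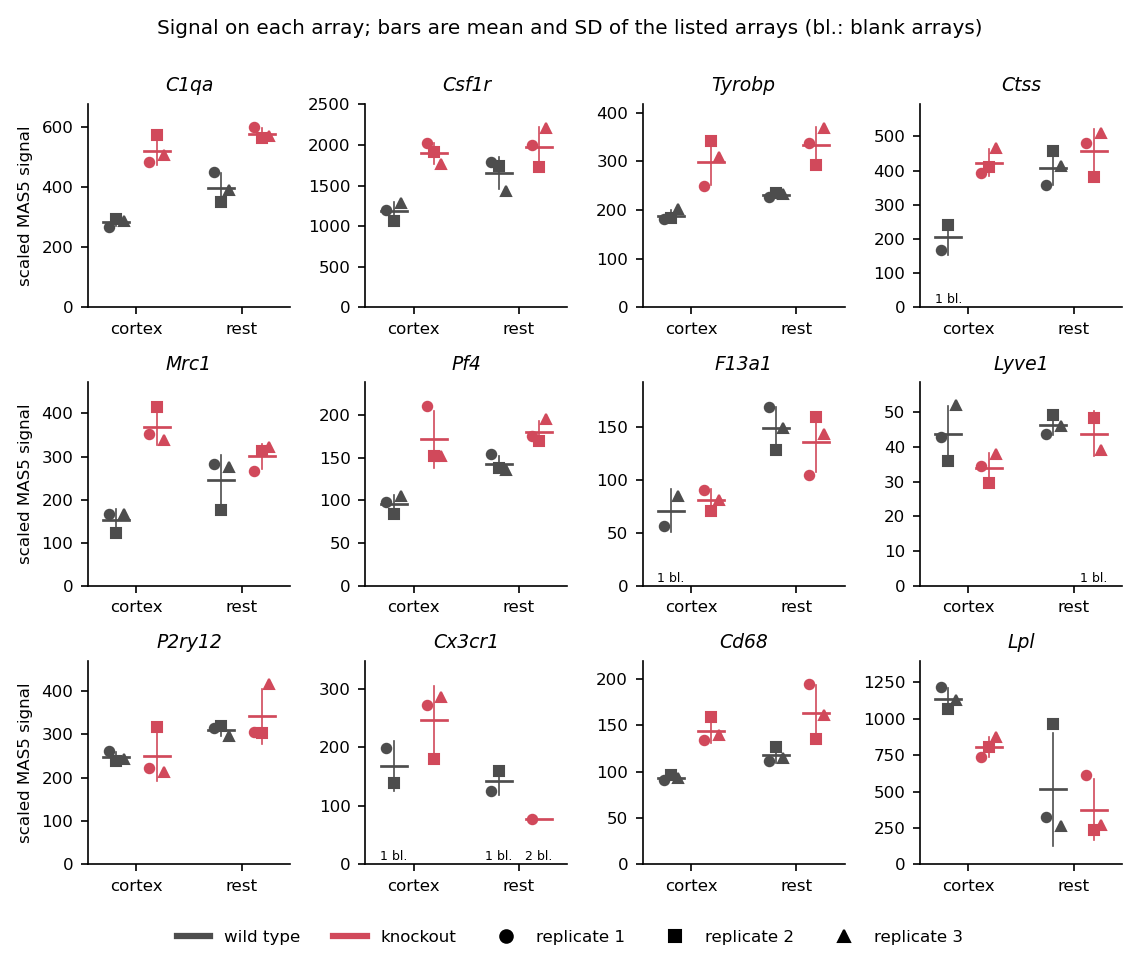
Scaled MAS5 signal (linear, from 0) of 12 member genes on each array, wild type in grey and knockout in red, for cortex on the A chip and for rest, with bars for the mean and SD of the listed arrays. The tables were normalised separately, so signals are read within cortex or within rest only; C1qa, Csf1r, Tyrobp, Mrc1, Pf4 and Cd68 separate the genotypes in cortex, while P2ry12 overlaps.

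Among the parenchymal microglia genes, none passed the test in cortex. P2ry12, an ADP receptor that steers microglial processes, read 261, 239 and 244 in wild type and 222, 318 and 213 in knockout. The groups overlap, with knockout replicate 2 the highest and the other 2 knockout arrays the lowest. The change was 0.00 with a 95% interval from -0.32 to 0.31 (adjusted p = 0.996). Cx3cr1, the fractalkine receptor, read 199 and 138 with a blank in wild type and 273, 180 and 287 in knockout. The groups overlap and 1 wild-type array is missing from the fit, in which the change was 0.50 (95% interval 0.033 to 0.97, adjusted p = 0.285). Over 16 alternatives the Cx3cr1 change was 0.38 to 1.18, with a lowest adjusted p of 0.127, so its size depends on the processing. A further Cx3cr1 probe set was listed on a single array, at 29.5. Siglech, a sialic acid-binding lectin, has its probe set on the B chip, where all 6 arrays were blank.

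Promoters of both measured genes are shown as those of the parenchymal group. They are the 250 bases before the start in RefSeq's GRCm38.p6, on the gene's strand. Of the motifs searched on both strands, the first is GAGGAA, which reads TTCCTC on the other strand. It is the core of the purine-rich box that the myeloid transcription factor PU.1 binds. Capitals mark it wherever it stands, and neither promoter holds it. Only exact letters were matched, so lack of the motif does not show that a promoter lacks a PU.1 site. P2ry12 lies at chr3:59262986-59263235, minus strand and Cx3cr1 at chr9:120068297-120068546, minus strand.
P2ry12: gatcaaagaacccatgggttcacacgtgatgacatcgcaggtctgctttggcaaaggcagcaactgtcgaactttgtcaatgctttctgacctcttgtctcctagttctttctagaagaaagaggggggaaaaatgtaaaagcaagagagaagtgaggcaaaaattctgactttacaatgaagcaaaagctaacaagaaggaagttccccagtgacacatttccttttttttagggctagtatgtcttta
Cx3cr1: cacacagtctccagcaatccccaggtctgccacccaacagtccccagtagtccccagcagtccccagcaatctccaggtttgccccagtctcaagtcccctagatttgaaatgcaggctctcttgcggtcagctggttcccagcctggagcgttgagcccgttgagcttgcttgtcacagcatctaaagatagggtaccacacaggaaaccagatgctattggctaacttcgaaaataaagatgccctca

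Of the 5 border macrophage genes, Mrc1 and Pf4 rose in cortex, F13a1 and Lyve1 did not pass the test and Cd163, a haemoglobin scavenger receptor, was blank on all arrays. Mrc1, the mannose receptor, read 166, 122 and 168 in wild type and 352, 415 and 338 in knockout. Each knockout array lay above all wild-type arrays. This was the largest change among the tested members, 1.20 (SE 0.14, adjusted p = 0.000839), or 2.30-fold. Mrc1 passed the test under all 19 alternatives, at 1.01 to 1.28.

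Pf4, a chemokine stored by platelets and expressed by border macrophages, read 98.4, 83.8 and 105 in wild type and 210.4, 153 and 152 in knockout. The groups do not overlap, and knockout replicate 1 is the highest. The change was 0.74 (SE 0.15, adjusted p = 0.0248). Without wild-type replicate 1 or 2 or knockout replicate 1 or 2 it did not pass (adjusted p = 0.0713, 0.081, 0.0784 and 0.0579), nor with the sex term (0.59, adjusted p = 0.367) or blanks set low (adjusted p = 0.0748).

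F13a1, the A subunit of coagulation factor XIII, read 56.5 and 85.0 with a blank in wild type and 90.7, 70.1 and 81.0 in knockout, which overlap, with a change of 0.17 (95% interval -0.25 to 0.59, adjusted p = 0.736). Lyve1, a hyaluronan receptor of border macrophages and lymphatic vessels, read 42.7, 35.9 and 52.1 in wild type and 34.5, 29.7 and 37.8 in knockout. These groups overlap too, and the change was -0.25 (95% interval -0.60 to 0.10, adjusted p = 0.506). A further Lyve1 probe set was blank in wild type and listed on 2 knockout arrays, at 32.7 and 45.5. The 95% interval of the Mrc1 change, 0.90 to 1.51, does not meet that of Lyve1.

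Promoters of both genes that rose are shown with the motif in capitals. That of Mrc1 (chr2:14229164-14229413, plus strand) holds it 3 times and that of Pf4 (chr5:90772185-90772434, plus strand) once, its outermost base 8 bases before the start.
Mrc1: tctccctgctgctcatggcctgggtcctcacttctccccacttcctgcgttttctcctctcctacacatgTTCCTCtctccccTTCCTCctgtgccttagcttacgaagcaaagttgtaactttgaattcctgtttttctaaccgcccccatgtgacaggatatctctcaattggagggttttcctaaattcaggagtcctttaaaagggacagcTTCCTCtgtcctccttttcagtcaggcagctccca
Pf4: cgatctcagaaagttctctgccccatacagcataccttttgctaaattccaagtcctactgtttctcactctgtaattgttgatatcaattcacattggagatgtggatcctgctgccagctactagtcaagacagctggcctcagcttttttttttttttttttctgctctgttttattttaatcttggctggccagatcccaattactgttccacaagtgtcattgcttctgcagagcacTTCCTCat

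Border and parenchymal genes were set against each other on each array as the mean log2 signal of the border genes listed on all 6 arrays (Mrc1, Pf4 and Lyve1) minus that of P2ry12, and expressed relative to the wild-type mean. The difference was -0.019, -0.16 and 0.18 in wild type and 0.79, 0.19 and 0.71 in knockout. Knockout replicate 2 lies next to the highest wild-type array and the other 2 knockout arrays well above. The knockout mean lay 0.57 above the wild-type mean on this scale (SD 0.17 in wild type and 0.33 in knockout, n = 3), a description with no test. It rests on 1 parenchymal gene, and its range was 0.45 to 0.75 when each array was left out.

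The 3 genes of C1q, the recognition molecule of the classical complement pathway, all rose in cortex. C1qa read 269, 294 and 286 in wild type and 484, 574 and 507 in knockout. The arrays of each genotype lie close together, and the groups are far apart. The change was 0.85 (SE 0.095, adjusted p = 0.000811), and C1qa passed under all 19 alternatives, at 0.75 to 0.90.

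C1qb read 206, 133 and 203 in wild type and 271, 313 and 323 in knockout. The groups do not overlap, with wild-type replicate 2 low. The change was 0.72 (SE 0.16, adjusted p = 0.0336), but it did not pass without wild-type replicate 2 or knockout replicate 1, 2 or 3 (adjusted p = 0.0566, 0.056, 0.137 and 0.12), with the sex term (0.81, adjusted p = 0.217), without the variance trend (adjusted p = 0.0673) or with blanks set low (adjusted p = 0.0939). The other 2 C1qb probe sets changed by 0.38 (adjusted p = 0.182) and 0.68 (adjusted p = 0.0608), neither past the threshold, with the groups apart on both.

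C1qc read 279.9, 261 and 211 in wild type and 407, 452 and 327 in knockout. The groups again do not overlap. The change was 0.62 (SE 0.14, adjusted p = 0.0363); it did not pass without wild-type replicate 1, 2 or 3 or knockout replicate 1 or 2 (adjusted p = 0.0508, 0.0689, 0.0904, 0.113 and 0.154) or with the sex term (0.37, adjusted p = 0.512). It was also lost under quantile normalization, without the variance trend and with blanks set low (adjusted p = 0.0584, 0.0744 and 0.0918).

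Promoters of C1qb and C1qc are shown because both genes rose and lie close together on chromosome 4, at chr4:136886201-136886450, minus strand and chr4:136892915-136893164, minus strand; C1qa has no entry. Each holds the motif once, C1qb its first base 30 bases before the start and C1qc at 193, on the other strand.
C1qb: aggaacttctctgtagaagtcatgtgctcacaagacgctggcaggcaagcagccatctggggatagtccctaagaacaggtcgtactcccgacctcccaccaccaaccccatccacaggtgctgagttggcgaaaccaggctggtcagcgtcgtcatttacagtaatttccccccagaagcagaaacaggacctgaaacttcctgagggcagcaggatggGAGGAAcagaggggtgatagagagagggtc
C1qc: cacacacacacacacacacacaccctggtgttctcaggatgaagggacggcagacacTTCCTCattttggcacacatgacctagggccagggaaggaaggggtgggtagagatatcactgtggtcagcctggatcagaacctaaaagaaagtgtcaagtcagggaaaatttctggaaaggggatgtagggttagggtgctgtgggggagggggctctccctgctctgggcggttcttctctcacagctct

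Of the receptors and their signalling partners, Csf1r and Tyrobp rose. Csf1r, the receptor for CSF1 and IL-34 on which microglia depend, read 1201, 1064 and 1285 in wild type and 2025, 1910 and 1765 in knockout. The groups are well apart. The change was 0.68 (SE 0.086, adjusted p = 0.00144); among the 19 alternatives it failed with the sex term alone (0.57, adjusted p = 0.0755). Its 3 probe sets disagree: the second changed by 0.62 (adjusted p = 0.00484) and the third by 0.22 (adjusted p = 0.568), with 200.1, 138 and 224 in wild type against 238, 219 and 196 in knockout.

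Tyrobp, the adaptor DAP12 that carries the signal of TREM2 and related receptors, read 181, 184 and 201 in wild type and 249, 343 and 308 in knockout, without overlap. The change was 0.62 (SE 0.13, adjusted p = 0.0239), lost without wild-type replicate 1 or 2 or knockout replicate 2 or 3 (adjusted p = 0.0885, 0.0693, 0.11 and 0.0894), with the sex term (0.67, adjusted p = 0.206) and with blanks set low (adjusted p = 0.0607). Trem2 itself was blank on all 6 arrays for both of its probe sets.

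Fcer1g, the common gamma chain of Fc receptors, and Fcgr3, a low-affinity IgG receptor, missed the threshold with the groups apart. Fcer1g read 127, 96.9 and 79.5 in wild type and 163, 159 and 148 in knockout, a change of 0.58 (adjusted p = 0.0849), and 0.73 (adjusted p = 0.0356) without wild-type replicate 1. Fcgr3 read 40.9, 55.2 and 69.3 against 86.0, 103 and 90.0, a change of 0.63 (adjusted p = 0.0815), and 0.77 (adjusted p = 0.0394) without wild-type replicate 3. The integrin chain Itgam was listed on 1 array of each genotype (28.1 and 26.5) and the bacterial sensor Tlr2 on 1 wild-type array (24.6) and 2 knockout arrays (46.6 and 26.5), so neither was tested. Cd14, the co-receptor for lipopolysaccharide, was blank throughout.

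The lysosomal genes Ctss and Cd68 rose, and Lpl fell. Ctss, the protease cathepsin S, read 169 and 240.4 with a blank in wild type and 392, 409 and 467 in knockout. All 3 knockout arrays lie far above both listed wild-type arrays. The change was 1.01 (SE 0.15, adjusted p = 0.00589) with wild-type replicate 3 missing from the fit, so that it could not be tested without either other wild-type array; with the sex term it was 1.15 (adjusted p = 0.0533), and with the blank set to a low signal 1.77 (adjusted p = 0.211).

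Cd68, a lysosomal membrane protein of macrophages, read 90.7, 96.2 and 92.8 in wild type and 134, 159 and 139 in knockout. The groups do not overlap. The change was 0.55 (SE 0.12, adjusted p = 0.0377), the least stable of the calls: it was lost without any 1 of the 6 arrays (adjusted p = 0.123, 0.08 and 0.0819 without wild-type replicates 1, 2 and 3, and 0.0673, 0.153 and 0.093 without knockout replicates 1, 2 and 3). It was also lost with the sex term (0.51, adjusted p = 0.349), under quantile normalization, with blanks set low and with the replicate block (adjusted p = 0.0913, 0.081 and 0.0771), and passed in 9 of 19 alternatives.

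Lpl, the lipoprotein lipase, which macrophages and several other brain cells express, read 1217, 1066 and 1129.6 in wild type and 735, 805 and 873 in knockout. All knockout arrays lie below all wild-type arrays. The log2 signal fell by 0.49 (SE 0.086, adjusted p = 0.0103), and on a second probe set by 0.58 (adjusted p = 0.0368). Without wild-type replicate 1 the adjusted p was 0.0531, and with the sex term 0.245. Lyz2, lysozyme of myeloid cells, changed by 0.46 (95% interval -0.21 to 1.12, adjusted p = 0.514), with overlapping groups from 40.4 to 95.6 and from 53.6 to 137. Gpnmb, a glycoprotein of lipid-laden macrophages, was blank on all arrays of both chips.

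Promoters of Ctss (chr3:95526536-95526785, plus strand) and Cd68 (chr11:69666171-69666420, minus strand), both of genes that rose, hold the motif once each, its first base 164 and 225 bases before the start.
Ctss: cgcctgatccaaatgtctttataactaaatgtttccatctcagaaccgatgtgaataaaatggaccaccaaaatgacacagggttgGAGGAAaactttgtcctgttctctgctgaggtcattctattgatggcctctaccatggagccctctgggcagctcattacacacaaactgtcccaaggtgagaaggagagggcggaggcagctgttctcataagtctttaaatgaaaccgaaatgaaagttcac
Cd68: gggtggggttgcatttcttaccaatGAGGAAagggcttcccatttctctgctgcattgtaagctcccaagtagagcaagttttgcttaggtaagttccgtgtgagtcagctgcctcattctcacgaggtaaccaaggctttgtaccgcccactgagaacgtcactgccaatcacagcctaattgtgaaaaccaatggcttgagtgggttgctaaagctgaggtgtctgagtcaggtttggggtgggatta

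Over all members with an entry (25 genes, 30 promoters, Spp1 included), 16 promoters (53.3%) hold GAGGAA on either strand, as do 23.3% of all 32851 promoters of this length. The longer GAGGAAGT, which contains it, is in 3 of 30 (10.0%) against 2.44%: those of C1qc, Pf4 and Spp1, whose expression was not analysed. The composite element of ETS and IRF factors is in 0 of 30 against 2.30%. Of the members past the threshold in cortex, C1qa, Csf1r, Tyrobp and Lpl have no promoter entry. The motif is not limited to genes that rose: it is in 15 of the 25 genes, among them F13a1, Cd53, Ptprc, Fcgr3 and Laptm5, which did not pass on their main probe sets, and Aif1, Itgam and Trem2, which were not tested in cortex. These are matches of letters in a window of 250 bases, and no test related them to the changes.

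None of the pan-myeloid membrane genes passed on its main probe set. Laptm5, a lysosomal membrane protein of blood-lineage cells, read 219, 149 and 192 in wild type and 289, 263 and 291 in knockout. The groups are apart; the change was 0.56 (adjusted p = 0.0528), with 0.68 (adjusted p = 0.0377) without wild-type replicate 1, and a second probe set rose by 0.74 (adjusted p = 0.0377). Ly86 (MD-1), a partner of the toll-like receptor relative RP105, changed by 0.54 (adjusted p = 0.068), with wild type at 102 to 128 below knockout at 155 to 203. The tetraspanin Cd53 changed by 0.22 (adjusted p = 0.51) and Ptprc, the leukocyte phosphatase CD45, by 0.20 (adjusted p = 0.678), both with overlapping groups. Aif1, which encodes the microglial marker IBA1, was listed on 1 wild-type array, at 69.3, and on all 3 knockout arrays, at 114, 117 and 105, and was not tested.

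Spi1, which encodes PU.1, changed by 0.071 (95% interval -0.29 to 0.43, adjusted p = 0.883), from 78.5, 52.5 and 64.7 in wild type to 59.1, 79.0 and 68.8 in knockout. The groups overlap fully. Irf8, its partner in microglia, was listed on 1 wild-type array at 54.0 and on the knockout arrays at 56.9, 40.6 and 65.4, and was not tested. The B chip adds no value: its 6 member probe sets, of Siglech, Gpnmb, Cd53, Ptprc and Laptm5 (2), were blank on all arrays.

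**Figure D2:**
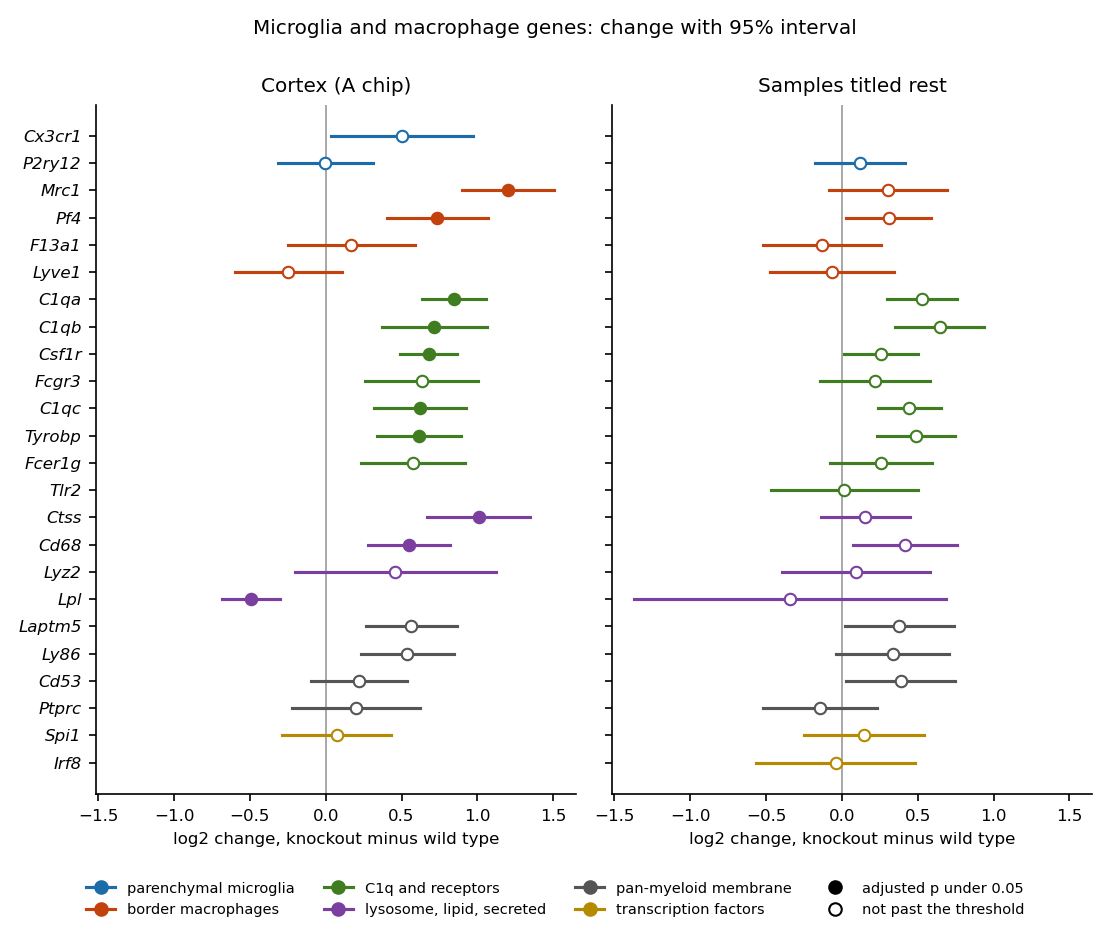
Log2 change of each tested member gene, knockout minus wild type, with its 95% interval, in cortex on the A chip (left) and in rest (right), coloured by role; filled points passed an adjusted p under 0.05. In cortex 9 filled points lie right of 0 and Lpl left of it, and in rest no point is filled.

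Other genes of the same cells were read from lists that share no gene with the members. Counts here and in the next paragraph are of cortex on the A chip, unless the B chip is named. Of 8 tested parenchymal microglia genes, 0 passed, with a median change of 0.10. An unadjusted p under 0.05 in limma was found for 3: Olfml3 and Tmem119, with positive changes, and Bin1, with a negative one. The largest change was that of the secreted protein Olfml3, 0.57 (adjusted p = 0.0974, and 0.71 with 0.0453 without knockout replicate 1). Tmem119 read 155 and 177 with a blank in wild type and 224, 228 and 224 in knockout (0.41, adjusted p = 0.127). Over 16 alternatives the Tmem119 change was 0.33 to 1.13, with a lowest adjusted p of 0.0701. Fcrls changed by 0.43 (adjusted p = 0.368) with overlapping groups. The others lay between -0.20 (Bin1) and 0.12, so the median does not describe Olfml3, Tmem119 and Fcrls. Of 4 tested border macrophage genes, 3 rose and 0 fell, with a median of 0.62: Fcgrt, the neonatal Fc receptor (0.88, adjusted p = 0.00215), Dab2, an endocytic adaptor (0.70, adjusted p = 0.00199), and Igfbp4, which binds insulin-like growth factors (0.45, adjusted p = 0.00492). Stab1, a scavenger receptor, changed by 0.55 (adjusted p = 0.128). These 3 also have other cellular sources in brain. Dab2 and Igfbp4 did not pass with the sex term (adjusted p = 0.0755 and 0.11). On the B chip none of the tested genes of these lists passed. A further Dab2 probe set changed there by 0.33 (adjusted p = 0.871) and Maf by 0.19 (adjusted p = 0.896). Of the parenchymal genes on that chip, P2ry13 changed by 0.19 (adjusted p = 0.901), Sall1 by 0.21 (adjusted p = 0.92) and Bin1 by 0.080 (adjusted p = 0.99).

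Of 4 other complement genes tested, 1 rose: Serping1, the C1 inhibitor (0.65, adjusted p = 0.0286), a call lost without any 1 of the arrays but wild-type replicate 3 (adjusted p = 0.0564 to 0.13), with the sex term (0.316), under quantile normalization (0.0637), with the replicate block (0.0696) and with blanks set low (0.0753). Of 11 genes of activated and axon-tract microglia, 1 rose: the lipid carrier Apoe, which astrocytes also make (0.30, adjusted p = 0.0286, and 0.0503 to 0.134 when any 1 array but wild-type replicate 3 was left out). Apoe also lost its call with the sex term, median centring, no variance trend, the replicate block and blanks set low (adjusted p = 0.319, 0.0527, 0.149, 0.081 and 0.0615). Of 3 Fc receptor and adaptor genes, 0 passed (0 at an unadjusted p under 0.05), and of 7 growth factors and ligands 0 passed (1 unadjusted), with Csf1 at 0.040 (adjusted p = 0.941) and Il34 at 0.11 (adjusted p = 0.814). Of 3 transcription factors, Klf4 rose (0.83, adjusted p = 0.0298) and Mef2c, which cortical neurons express at a high level, fell (-0.37, adjusted p = 0.00875). Klf4 was dim, at 30.7, 25.2 and 29.0 in wild type and 80.9, 64.6 and 46.9 in knockout. Cebpb missed the threshold (0.64, adjusted p = 0.0647), at 56.7 and 61.7 with a blank against 94.8, 94.5 and 115. It passed without the variance trend (adjusted p = 0.0421) and with its probe sets averaged (adjusted p = 0.0374). The Klf4 call was lost without any 1 of the arrays but knockout replicate 3 (adjusted p = 0.064 to 0.12), with the sex term (0.473) and with blanks set low (0.0907). That of Mef2c was lost without knockout replicate 2 (adjusted p = 0.051), with the sex term (0.148), without the variance trend (0.0738) and with its probe sets averaged (0.17). None of the other toll-like receptor genes could be tested, with 8 of 9 blank.

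Markers of other cells moved beside these members in cortex. Of 14 tested meningeal and mural markers, 10 rose, by a median of 1.21 over the list, and the summed signal of 12 of them was 3584 to 3964 in wild type and 8605 to 10110 in knockout. Of 10 endothelial markers, 4 rose (summed signal of 9 from 1703 to 1988 and from 2431 to 2659). Of the choroid plexus markers, 0 of 2 passed on the A chip (Folr1 1.29, adjusted p = 0.0539) and 2 of 4 rose on the B chip, Sulf1 (1.07) and Kcnj13 (1.25). The summed B chip signal of 3 was 4294 to 14140 in wild type and 18540 to 27070 in knockout. Most of it is Ttr, which did not pass (1.33, adjusted p = 0.178). Ttr read 13111, 3799 and 13518 in wild type and 17514, 23796 and 25656 in knockout. Of 10 astrocyte markers on the A chip, 3 rose (Gjb6, Gja1 and Aqp4), with a summed signal of 7045 to 7654 and of 8595 to 10350. Of 5 oligodendrocyte markers, 3 fell (Mbp -3.17, Ugt8a -0.99 and Olig1 -0.50), and the summed signal of 4 was 3389 to 4177 in wild type and 1534 to 1989 in knockout. Border macrophages lie in meninges, vessel walls and choroid plexus; the part of any of these lists in the changes of the members was not tested. Of the 10 blood monocyte and neutrophil markers on the array, 0 could be tested and 7 were blank on all arrays, among them Ccr2, Mpo and Elane. Lymphocyte markers were blank for 9 of 11 genes, Cd3e, Cd3d, Cd79a and Ms4a1 included, and mast cell markers for 6 of 7.

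**Figure D3:**
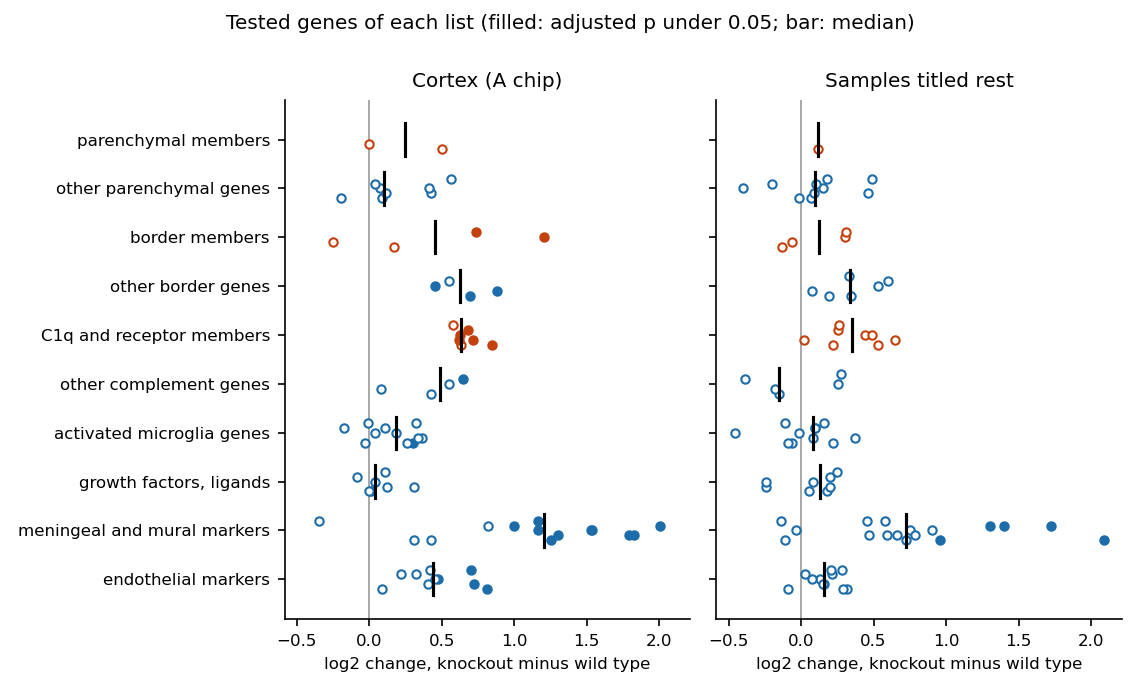
Log2 change, knockout minus wild type, of each tested gene of the lists drawn, for cortex on the A chip and for rest. Orange marks the parenchymal, border macrophage, and C1q and receptor members, and blue a selection of companion and marker lists. The other member groups are not drawn. Filled points passed an adjusted p under 0.05 and a black bar is the list's median. In cortex the medians are 0.10 for other parenchymal genes (range -0.20 to 0.57), 0.62 for other border genes (0.45 to 0.88) and 1.21 for meningeal and mural markers.

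In rest, 23 of 31 member genes were tested and 0 passed (0.18% of 11101 genes passed in each direction). An unadjusted p under 0.05 in limma was found for 9, without a share over all genes to set beside it. All knockout arrays lay above all wild-type arrays for 8 of the 23 (9.17% of all genes tested) and below them for 0 (7.94%), and the median change was 0.26 against 0.012 over all genes. The lowest adjusted p was 0.0825. No member passed under any of the 20 alternatives run for rest.

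On the main probe sets, the C1q genes and Tyrobp gave the clearest values in rest, without passing. C1qa read 449.8, 351 and 392 in wild type and 600.2, 563 and 569.9 in knockout, a change of 0.53 (SE 0.10, adjusted p = 0.0825). C1qb read 244, 216 and 222 against 422, 305 and 375, a change of 0.65 (SE 0.13, adjusted p = 0.0943). C1qc read 376, 344 and 362 against 533, 469 and 489, a change of 0.44 (SE 0.092, adjusted p = 0.104). In all 3 the groups do not overlap. Tyrobp read 228, 235 and 233 against 339, 292 and 368, again apart, a change of 0.49 (SE 0.11, adjusted p = 0.149). The other 2 C1qb probe sets changed less, by 0.25 (adjusted p = 0.6) and 0.20 (adjusted p = 0.691).

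None of the border macrophage or parenchymal genes passed in rest. Mrc1 read 283, 176 and 275 in wild type and 268, 313 and 321 in knockout, which overlap, a change of 0.30 (95% interval -0.083 to 0.69, adjusted p = 0.595). Pf4 read 154, 138 and 136 against 176, 169.9 and 195, which do not, a change of 0.31 (0.025 to 0.59, adjusted p = 0.435). F13a1 read 168, 128 and 149 against 104, 159 and 143, a change of -0.13 (adjusted p = 0.854). These groups overlap, as do those of Lyve1, read in rest on its other probe set at 43.6, 49.2 and 46.1 against 48.4 and 39.2 with a blank (-0.063, adjusted p = 0.94). Cd163 was blank. P2ry12 read 315, 319.8 and 296 against 306, 304 and 416, a change of 0.12 (95% interval -0.17 to 0.41, adjusted p = 0.816), with knockout replicate 3 high. Cx3cr1 was listed on 2 wild-type arrays (125 and 160.4) and 1 knockout array (77.7) and was not tested, and Siglech was blank. Border minus parenchymal, with Mrc1, Pf4 and F13a1 against P2ry12, was 0.14, -0.25 and 0.11 in wild type and 0.012, 0.26 and -0.15 in knockout, a mean difference of 0.041.

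Of the other members in rest, Ctss overlapped between 356, 456 and 412 in wild type and 480 (knockout replicate 1), 383 and 509 in knockout (0.15, adjusted p = 0.743). Csf1r changed by 0.26 (adjusted p = 0.451), Cd68 by 0.41 (adjusted p = 0.375), Cd53 by 0.39 (adjusted p = 0.438) and Laptm5 by 0.38 (adjusted p = 0.448). Further Csf1r probe sets changed by 0.16 (adjusted p = 0.717) and 0.029 (adjusted p = 0.958). A second Laptm5 probe set changed by 0.51 (adjusted p = 0.207), with the groups apart. Lpl read 326, 965 and 262 in wild type and 616, 239.5 and 268 in knockout: wild-type replicate 2 and knockout replicate 1, the arrays with high Neurod6, were high. Its change was -0.34 (95% interval -1.37 to 0.69) and turned to 0.22 without wild-type replicate 2. Fcer1g, Fcgr3, Ly86, Lyz2, Tlr2, Ptprc, Irf8 and Spi1 lay between -0.14 and 0.34, Aif1 was listed on 1 wild-type array (80.1) and 3 knockout arrays (128, 74.5 and 106), and Itgam on 1 and 2. Trem2, Cd14 and Gpnmb were blank. No companion gene passed in rest, while 5 of 17 meningeal and mural markers rose (summed signal 5855 to 10350 in wild type and 13060 to 14180 in knockout). Of 8 oligodendrocyte markers, 2 fell, Sox10 and Mal, and all 8 had a limma p under 0.05 before adjustment, with a median change of -2.43 (summed signal of 7 from 16400 to 17690 and from 3762 to 11030). Of the astrocyte, endothelial and choroid plexus markers none passed, with 1 of 10, 1 of 11 and 0 of 6 at an unadjusted p under 0.05 in limma. The part of these lists in the members' values was not tested.

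Whether the change differed between rest and cortex was tested as an interaction in 1 fit of both tables. Cortex and rest were read on different array types, so tissue and array cannot be told apart in it. The fit takes all arrays as independent, and whether same-numbered cortex and rest samples share an animal is not given. Their deviations correlated at -0.0205 to 0.142. For 21 member genes compared, the difference, rest minus cortex, was below 0 for 16 and above 0 for 5. It was below 0 for 46.6% of all 7222 genes. The median difference was -0.20 for the members and 0.018 for all genes. Its sign does not give the size of the change: Lpl (-0.49 in cortex, -0.34 in rest) and Lyve1 (-0.25 and 0.088) are among the 5. The difference passed for 0 members (0.0415% of all genes, and 0.0502% of probe sets, passed). Again without a share over all genes, 5 had an unadjusted p under 0.05. These were Ctss (-0.85, 95% interval -1.32 to -0.39, adjusted p = 0.188), Mrc1 (-0.90, -1.41 to -0.39, adjusted p = 0.195), Csf1r (-0.42, adjusted p = 0.317), Pf4 (-0.43, adjusted p = 0.454) and C1qa (-0.32, adjusted p = 0.441). For C1qb the difference was -0.070 (-0.54 to 0.40, adjusted p = 0.945) and for P2ry12 0.12 (-0.32 to 0.56, adjusted p = 0.887). A larger response of the members in cortex is therefore not shown by this test, and these intervals do not show equal change either.

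**Figure D4:**
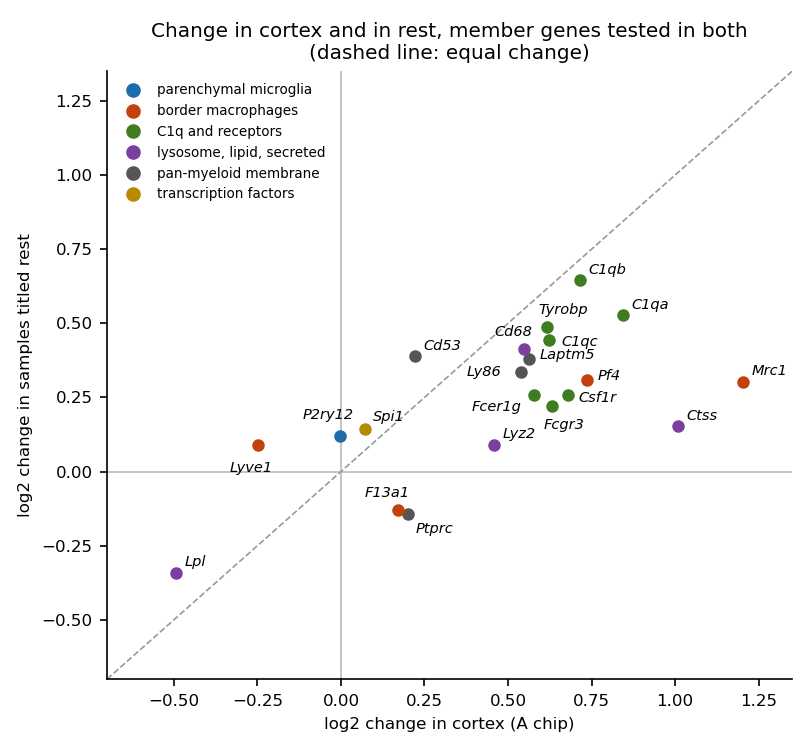
Log2 change, knockout minus wild type, in cortex on the A chip (horizontal) and in rest (vertical) for the 21 member genes tested in both, coloured by role, with a dashed line where the changes are equal; Lyve1 is plotted on the probe set shared by the joint fit. Mrc1 (1.20 and 0.30) and Ctss (1.01 and 0.15) lie farthest below the line, and C1qb (0.72 and 0.65) lies near it.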

How the data were processed

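RNA of 18 arrays in 3 tables of 6 was read. The deposited intensity values are linear signals, 1 per probe set, from MAS5 per the submitters' processing notes; version, settings and the reason for blank cells are not given in the sources used here. The arrays of a table lay near 1 level (scaling factors 0.9477 to 1.059). Arrays were brought to the same 2% trimmed mean of the probe sets listed on all 6, and signals were taken as log2(signal + 16), which understates changes of dim genes. Gene symbols came from the array annotation, updated through RefSeq; probe sets with several genes were left unnamed.

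Genotypes were compared inside a table by limma 3.58.1 (R 4.3.3; lmFit and eBayes, intensity trend, no covariate), with Benjamini-Hochberg adjustment over all probe sets tested (12065, 7838 and 21407) and a threshold of 0.05. For the difference between rest and cortex, both tables were fitted together with an interaction term (11959 probe sets). Counts at an unadjusted p have no share over all genes beside them and are descriptions only. The procedure was tested on simulated data. Members, companion lists and markers were chosen with earlier results of these data known. Every member is accounted for; values on each array are given for parenchymal, border macrophage and C1q genes and for each member past the threshold, and of a companion list up to 4 genes are named, ranked by change among those past the threshold, or by p where none passed.

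Same-numbered wild-type and knockout arrays correlated in their deviations at -0.00876 to 0.0189 on the A chip, 0.0721 to 0.159 for the B chip and 0.0227 to 0.251 for rest, so the numbers were not taken as pairs. The alternatives were other scalings, offsets of 1 and 64, a level filter, other treatments of blanks, other variance models, a replicate block, a sex term, averaging a gene's probe sets, and leaving out each array.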

Additional observations from a re-analysis of the deposited data

How the results depend on the processing

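The scalings tried, the offsets and the level filter left the cortex count at 7 to 10 members higher and 1 lower. Of 1299 alternatives for 71 named gene results, 1194 kept direction and side of the threshold, 75 lost the call, 12 gained one and 18 changed sign. With the replicate block, 9 members were higher and 1 lower in cortex (Cd68 lost, adjusted p = 0.0771, and Laptm5 gained, adjusted p = 0.0451), and the probe sets called in all were 12 on the B chip and 142 in rest. With blanks set low, 3 members were higher in cortex (C1qa, Csf1r and Mrc1), 111 probe sets were called in rest and 23 differed between rest and cortex. With the sex term, 2 members were higher and 0 lower in cortex, and probe sets called were 82 in cortex, 10 in rest and 0 for the difference. Without the variance trend they were 9 (B chip), 11 (rest) and 3 (difference); the difference gave 3 at an offset of 64 and 1 at the 60th percentile filter. Leaving out each array gave 3 to 8 members higher and 0 to 1 lower in cortex, and probe sets called of 185 to 330 (A chip, 364 with all arrays), 9 to 25 (B chip, 22), 13 to 69 (rest, 67) and 0 to 13 (difference, 6). The border minus parenchymal difference was 0.45 to 0.75 in cortex and -0.086 to 0.14 in rest. Without both wild-type replicate 2 and knockout replicate 1 of rest, chosen after seeing the data, 12 probe sets were called there. Sign changes were all of results that did not pass. In cortex, P2ry12 was 0.00077 at an offset of 64 and, over the fits that leave out 1 array, -0.17 to 0.097; the same range was -0.037 to 0.22 for Il34, -0.046 to 0.19 for Spi1 and -0.070 to 0.20 for Cd59a. In rest, Irf8 was 0.055 under quantile normalization, 0.34 with blanks set low and -0.18 to 0.14 without 1 array, and Tlr2 was -0.029 with blanks set low; the ranges without 1 array were -0.75 to 0.22 for Lpl, -0.082 to 0.31 for Lyz2, -0.24 to 0.028 for F13a1, -0.095 to 0.088 for Lyve1 and -0.023 to 0.19 for P2ry12. The cause was not tested.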
